A study of Mus musculus with 2 samples.

Results

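Elastic fibres and the microfibrils that scaffold them were followed through 10 genes, taken by symbol from the 33696 genes listed in the deposited count matrices. They encode elastin (*Eln*), the fibrillins (*Fbn1*, *Fbn2*), microfibril-associated glycoproteins (*Mfap4*, *Mfap5*), the fibulins (*Fbln1*, *Fbln2*, *Fbln5*) and their short relatives (*Efemp1*, *Efemp2*), and all 10 were present in both matrices. The data were single-cell RNA sequencing (scRNA-seq) libraries of mouse mammary stroma, 1 from puberty (4-week-old mice) and 1 from adulthood (virgin 9-week-old mice). Both stages came from wildtype female C57BL/6 mice, with 2 females per condition per the labels and no treatment. Cells had been isolated by FACS as Lineage–CD24–, a gate against endothelial, red blood, immune and epithelial cells. Both libraries were marked replicate 2 and each stage had 1 library. Differences between the stages therefore compare 2 libraries, and those between cell groups compare cells of 1 library, in both cases without a replicate check, and no p-value was computed.

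An elastic fibre has a core of crosslinked elastin laid down on a sheath of microfibrils. Fibrillins polymerise into the microfibrils, small glycoproteins decorate them, fibulins bridge elastin, microfibrils and the cell surface, and lysyl oxidases crosslink the core. The fibres give recoil to stretched tissues such as arteries, lung and skin, and in most of them fibroblasts and smooth muscle cells make the components.

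The pubertal library held 21534 cells with at least 500 genes and at most 10% mitochondrial UMIs (unique molecular identifiers, which count each captured transcript once), at a median of 11763 UMIs. The adult library held 22972 such cells at a median of 10842.5 UMIs, and 143 of the kept barcodes occurred in both libraries. Cells with at least 1 UMI of the fibroblast marker *Pdgfra*, here *Pdgfra*+ cells, numbered 18878 at puberty and 20999 in the adult. Within them, cells were grouped by marker UMIs into *Pi16*+*Dpp4*+ cells (13983 and 8853), cells with *Gdf10* or *Fmo2* (7462 and 10066), with *Thbs4* or *Bmp5* (927 and 3117), with at least 2 UMIs of *Fabp4* (1779 and 2553) and with *Crabp1* (289 and 2672). These subsets overlap, and 5792 pubertal and 7462 adult cells were in several. *Pdgfra*-negative cells with *Myh11* or *Rgs5*, markers of vascular smooth muscle and pericytes, numbered 783 and 457. The 6 fibroblast markers *Dcn*, *Lum*, *Pdgfra*, *Col1a2*, *Col1a1* and *Igfbp5* summed to 32284 CPM (UMIs of a gene per 1000000 UMIs of the group) in pubertal and 27168 CPM in adult *Pdgfra*+ cells, against 239 and 246 CPM for 10 pericyte and smooth muscle markers.

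In *Pdgfra*+ cells elastin, both fibrillins and *Mfap5* were lower in the adult library, whereas the fibulins, their short relatives and *Mfap4* were near level or higher. *Eln* (chr5:134702593-134747323, minus strand), which encodes the elastic core protein itself, was counted at 543 CPM at puberty and 243 CPM in the adult. That is 0.448 of the pubertal level, with a 95% interval of 0.443 to 0.452 that covers counting error only, as do all intervals here. Of the 8645 genes with at least 10 CPM in either library, 1.18% had a lower ratio than *Eln*. *Fbn1* (chr2:125300594-125507993, minus strand), the main fibrillin of postnatal microfibrils, went from 2633 to 1644 CPM, a ratio of 0.624 (0.622 to 0.627). *Mfap5* (chr6:122505845-122529290, plus strand), a microfibril-associated glycoprotein that binds fibrillin, went from 1284 to 772 CPM, a ratio of 0.601 (0.598 to 0.605). These 3 were the members past 1.5-fold lower, a call that 5.09% of all genes received. *Fbn2*, a fibrillin best known from development, stood closest outside that call with 129 CPM at puberty and 87.7 CPM in the adult, a ratio of 0.681 (0.669 to 0.693).

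No member was past 1.5-fold higher in the adult *Pdgfra*+ sum, a call that 12% of all genes received. *Efemp1* (chr11:28853204-28926743, plus strand), the fibulin-like glycoprotein also called fibulin-3, was counted at 565 CPM at puberty and 782 CPM in the adult, a ratio of 1.38, with an interval of 1.37 to 1.39. *Fbln2* (chr6:91212455-91272540, plus strand), a large fibulin of vessel walls and basement membranes, went from 317 to 404 CPM, a ratio of 1.27 (1.26 to 1.29). *Fbln1* (chr15:85205949-85286535, plus strand), a fibulin that associates with elastin-containing fibres and fibronectin, gave 159 and 177 CPM with a ratio of 1.11. *Mfap4* (chr11:61485431-61488900, plus strand), a fibrinogen-related glycoprotein that binds elastic fibres, gave 77.4 and 87.6 CPM with a ratio of 1.13. The last 2 proteins, both needed to assemble elastic fibres, differed least. *Fbln5* (chr12:101746565-101819055, minus strand), which tethers elastin to microfibrils and integrins, gave 119 and 112 CPM with a ratio of 0.94. That ratio turned to 1.11 when the adult was weighted to the subset makeup of puberty as described further on. Of the 7 disjoint classes behind that weighting, *Fbln5* was lower in the adult in 6 and higher in 1, with ratios of 0.447 to 1.31. With equal weight for each subset its log2 ratio was -0.32. *Efemp2* (chr19:5473954-5482517, plus strand), also called fibulin-4, which brings lysyl oxidase to elastin, gave 87.0 and 85.7 CPM with a ratio of 0.985, whose interval of 0.966 to 1.004 includes 1.

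The median log2 ratio of the 10 genes was -0.06, against 0.13 over all 8645 genes. Summed, the 10 genes made up 5914 CPM of the pubertal and 4395 CPM of the adult *Pdgfra*+ UMIs. *Fbn1* alone was 44.5% of those UMIs at puberty and 37.4% in the adult, and *Eln* was 9.18% and 5.53%. *Efemp1* moved the other way in this sum, from 9.56% to 17.8%, so that in the adult it held about the share of *Mfap5*, at 17.6%.

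**Figure D1:**
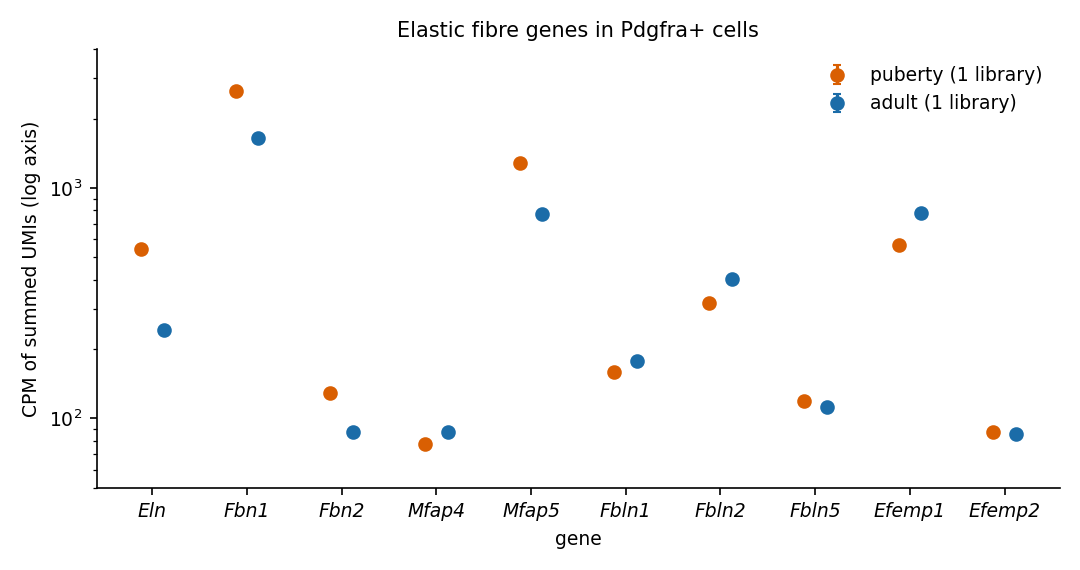
Levels of the 10 genes in Pdgfra+ cells, in CPM of summed UMIs on a log axis, 1 point per library. Eln, Fbn1, Fbn2 and Mfap5 sit lower in the adult, with Eln going from 543 to 243 CPM, while Efemp1 and Fbln2 sit higher and Fbln5 and Efemp2 nearly coincide. The 95% Poisson intervals are smaller than the points.

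The share of cells with a UMI was taken after each cell of at least 3000 UMIs was thinned at random to 3000 UMIs. By this measure *Eln* was the 1 gene whose shares differed past 1.5-fold. *Eln* was detected in 61.2% of 18542 pubertal and 34.3% of 20573 adult *Pdgfra*+ cells (86.5% and 59.3% unthinned). The unthinned shares of *Eln* were within 1.5-fold of each other, so that call rests on the thinning. The share of all genes past the fold is not given for this measure. *Fbn1* was detected in 95.8% and 87.8% of the thinned cells, and *Mfap5* in 86.6% and 77.6%. *Mfap4* was found in 9.17% and 12.2% of thinned cells. *Fbn2* stood between them, with 24.1% and 16.6%. *Efemp1* was detected in 69.8% and 71.5%, *Fbln2* in 51.7% and 55.4%, *Fbln1* in 31.0% and 34%, *Fbln5* in 28.5% and 25.5%, and *Efemp2* in 22.4% and 21.2%. The median thinned *Pdgfra*+ cell had UMIs of 5 of the 10 genes at puberty and of 4 in the adult.

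To gauge free RNA, the same shares were taken in *Pdgfra*-negative skeletal muscle-like cells, which were few. These had at least 2 of the 3 markers *Pax7*, *Myf5* and *Myod1* (32 and 88 cells after thinning, median depth 5485.5 and 5293 UMIs before it), and *Eln* was found in 3.13% and 1.14% of them. *Pdgfra*+ cells, at median depths of 12187 and 11265 UMIs, lay above them for all 10 genes at both stages. For *Fbn1* the share in the muscle-like cells was high, at 62.5% and 47.7%. *Efemp2* reached 6.25% of the pubertal muscle-like cells.

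*Pi16*+*Dpp4*+ cells, the fibroblasts that carry progenitor or adventitial markers, held the highest levels of the microfibril genes *Fbn1* and *Mfap5*. *Fbn1* reached 3143 CPM in pubertal *Pi16*+*Dpp4*+ cells against 752 CPM in *Pdgfra*+ cells with neither marker, a ratio of 4.18 (4.13 to 4.24). In the adult the levels were 2493 and 672 CPM, a ratio of 3.71 (3.67 to 3.75). *Mfap5* was 1528 against 390.4 CPM at puberty and 1038 against 466 CPM in the adult, which are ratios of 3.91 (3.84 to 3.99) and 2.23 (2.20 to 2.26). Both genes were thus several-fold higher on this side at both stages. After thinning, 99.5% and 97.9% of *Pi16*+*Dpp4*+ cells had a UMI of *Fbn1*.

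*Eln* and *Efemp1* followed the same direction. *Eln* was 597 against 308 CPM at puberty and 330.5 against 114 CPM in the adult, ratios of 1.94 (1.90 to 1.98) and 2.90 (2.83 to 2.97). *Efemp1* was 641 against 289 CPM and 957 against 612 CPM, ratios of 2.22 and 1.56. *Fbln2* (1.41 and 1.74) and *Fbln5* (1.21 and 2.13) were past 1.5-fold higher in the adult library alone, and adult *Fbln2* came to 1.24 with exclusive subsets (cells with the markers of 1 subset only) and 1.28 after thinning, no longer past it. In all, 5 of 10 genes at puberty were past 1.5-fold higher in *Pi16*+*Dpp4*+ cells, where 10.0% of all genes were, and 6 of 10 in the adult, where 9.9% were. In the other direction 1 of 10 genes was past the fold at each stage, against 14.8% and 13.6% of all genes.

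That single gene differed between the stages. At puberty it was *Mfap4*, with 49.8 CPM in *Pi16*+*Dpp4*+ cells and 120 CPM in cells with neither marker, a ratio of 0.415, and its adult ratio was 0.949. That adult ratio came to 0.195 with exclusive subsets and to 0.410 after thinning, so it was then past the fold lower as well. In the adult it was *Fbn2*, with 59.1 and 115 CPM, a ratio of 0.515 (0.499 to 0.532). At puberty *Fbn2* had stood on the other side, with 141 and 75.9 CPM and a ratio of 1.86 (1.78 to 1.94). *Fbn2* was the member whose order between these cells turned past 1.5-fold on both sides, from higher in *Pi16*+*Dpp4*+ cells at puberty to lower in the adult. The turn was found in 27.0% against 13.2% of thinned cells at puberty and in 10.4% against 21.7% in the adult. It was present in each of the 5 alternatives run for it, with pubertal ratios of 1.62 to 1.88 and adult ratios of 0.315 to 0.459. *Efemp2* (0.978 and 1.08) was within 1.5-fold, as was *Fbln1* (0.676 and 0.891), though pubertal *Fbln1* was past it at 0.560 with exclusive subsets and 0.621 with cells averaged by their own CPM.

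**Figure D2:**
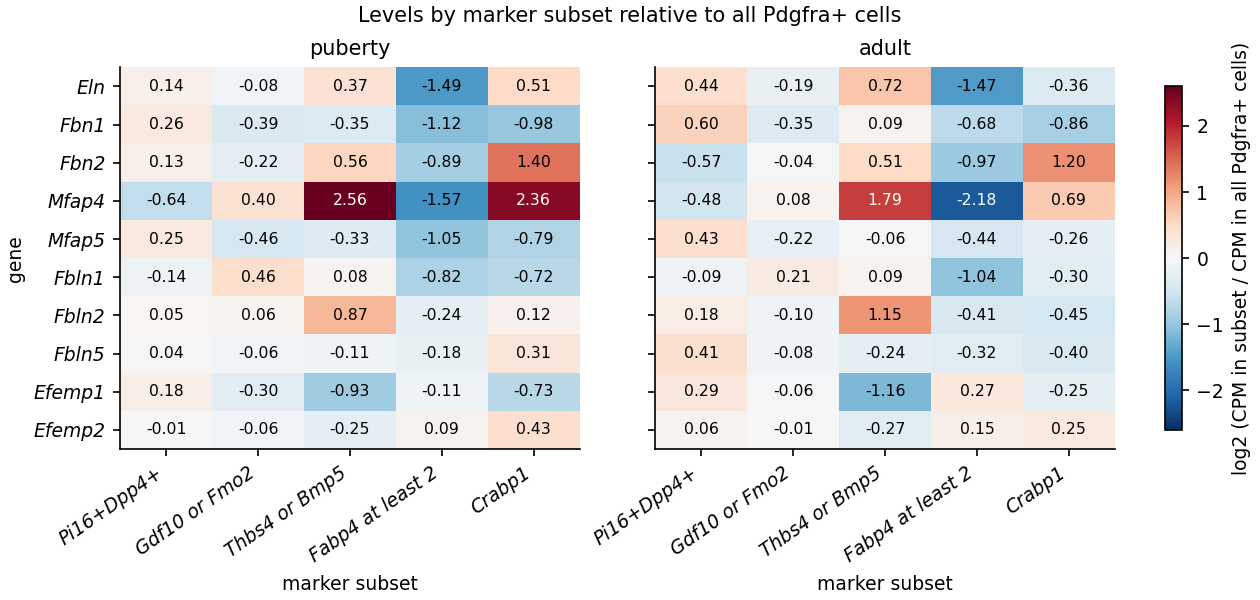
Level of each gene in each marker subset relative to all Pdgfra+ cells, as log2 of the CPM ratio printed in the cell, with puberty on the left and adult on the right. Mfap4 stands at 2.56 and 1.79 in Thbs4 or Bmp5 cells and at -1.57 and -2.18 in Fabp4 cells, and Fbn2 at 1.40 and 1.20 in Crabp1 cells, while the Efemp2 row stays between -0.27 and 0.43.

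Cells with *Thbs4* or *Bmp5*, which mark the fibroblasts the study calls lobular-like, had the highest levels of *Mfap4* and *Fbln2* among the subsets. *Mfap4* was counted there at 457 CPM at puberty and 303 CPM in the adult, and the ratios to the other *Pdgfra*+ cells were 7.95 (7.70 to 8.20) and 6.40 (6.23 to 6.57). After thinning it was found in 36.4% and 33.0% of these cells, against 9.17% and 12.2% of all *Pdgfra*+ cells. *Fbln2* was counted at 580 and 894 CPM, which was 1.91 (1.87 to 1.96) and 2.87 (2.83 to 2.91) times the other cells. *Fbn2* was at 189 and 125 CPM, ratios of 1.51 and 1.55, of which the adult one came to 1.25 to 1.46 in 4 of 5 alternatives. *Eln* was at 400.4 CPM in the adult, 1.87 times the other cells, and at 1.31 times the others at puberty. *Efemp1* went against the rest, with 297 and 350 CPM and ratios of 0.513 (0.496 to 0.531) and 0.405 (0.398 to 0.412), its lowest levels among the *Pdgfra*+ subsets. With exclusive subsets the *Efemp1* ratios came to 0.140 and 0.153 and the pubertal one of *Mfap4* to 14.1, and after thinning those of *Efemp1* to 0.288 and 0.249. In either direction 4 genes at puberty and 5 in the adult were past 1.5-fold, calls that 11.7% and 9.18% of all genes received.

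Cells with *Crabp1*, which encodes a retinoic acid-binding protein, shared the high *Mfap4* and were the highest in *Fbn2*. *Fbn2* was counted at 340 CPM at puberty and 201 CPM in the adult, 2.72 (2.58 to 2.87) and 2.84 (2.76 to 2.93) times the other *Pdgfra*+ cells. After thinning, 56.6% of 288 and 36% of 2651 such cells had a UMI of it. *Mfap4* was at 397 and 141 CPM, ratios of 5.54 (5.27 to 5.83) and 1.78 (1.72 to 1.84), the adult one at 1.31 with exclusive subsets. *Eln* had its highest pubertal level here, at 775 CPM, and a level of 189 CPM in the adult, below that of all *Pdgfra*+ cells. *Fbn1* was low at both stages, with 1339 and 906 CPM and ratios of 0.504 and 0.516. At puberty *Mfap5* (0.574), *Fbln1* (0.604) and *Efemp1* (0.601) were also lower. In all 6 genes at puberty and 3 in the adult were past the fold, in comparisons where 31.1% and 21.2% of all genes were, and 7 were at each stage with exclusive subsets.

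Cells with *Fabp4*, which encodes a fatty acid-binding protein of adipocytes and their precursors, were the lowest subset for many members. *Eln* was counted at 193 and 87.9 CPM, 0.330 (0.321 to 0.340) and 0.325 (0.313 to 0.336) of the other *Pdgfra*+ cells. *Mfap4* was at 26.1 and 19.4 CPM, ratios of 0.312 and 0.194, and *Fbn2* at 69.3 and 44.9 CPM, ratios of 0.510 and 0.471. *Fbln1* (0.540 and 0.445) and *Fbn1* (0.433 and 0.584) were below the fold as well, and *Mfap5* was at puberty (0.454) but not in the adult (0.706), where it passed the fold at 0.588 with exclusive subsets and 0.659 without the highest doublet scores. *Efemp1* was within the fold, with 523 and 942 CPM and ratios of 0.917 and 1.25, and in the adult its interval overlapped that of *Pi16*+*Dpp4*+ cells. Also within it were *Efemp2* (1.07 and 1.13), *Fbln5* (0.868 and 0.772) and *Fbln2* (0.831 and 0.721), though adult *Fbln2* passed it at 0.610 with exclusive subsets. In all 6 genes at puberty and 5 in the adult were past the fold, all lower, where 16.8% and 11.6% of all genes were past it in either direction.

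Cells with *Gdf10* or *Fmo2* made up 39.5% and 47.9% of the *Pdgfra*+ cells. They had the highest *Fbln1*, with 220 and 206 CPM and ratios of 1.89 (1.85 to 1.93) and 1.39 (1.37 to 1.42), the adult one at 1.98 with exclusive subsets. *Fbn1* was lower, with ratios of 0.655 and 0.645, as was pubertal *Mfap5* (0.609), and pubertal *Mfap4* was higher (1.72). In all 4 genes at puberty and 1 in the adult were past the fold, against 7.17% and 5.4% of all genes. With exclusive subsets 6 and 5 were, with pubertal *Efemp1* (0.3001) and *Fbn2* (0.308) and adult *Eln* (0.562), *Fbln2* (0.663) and *Mfap5* (0.524) added to the lower side. Over these 4 subsets and both stages, 34 ratios were past the fold, 50 with exclusive subsets and 40 after thinning.

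The members thus varied to very different extents among the 5 subsets. The highest subset was 17.5 times the lowest for *Mfap4* at puberty and 15.6 times in the adult, 4.01 and 4.56 times for *Eln*, and 4.91 and 4.48 times for *Fbn2*. *Fbn1* spanned 2.59 and 2.75 times, *Fbln2* 2.16 and 3.02 times, *Efemp1* 2.16 and 2.74 times, *Mfap5* 2.47 and 1.82 times, and *Fbln1* 2.43 and 2.39 times. *Fbln5* was the most even at puberty and *Efemp2* in the adult, as they spanned 1.40 and 1.76 times and 1.60 and 1.44 times. Some neighbours in these orders could not be separated by their counting intervals. For *Fbln5* these were the *Gdf10* or *Fmo2* cells and the *Thbs4* or *Bmp5* cells at puberty, the latter and the *Fabp4* cells at both stages, and the *Fabp4* and *Crabp1* cells in the adult. The 5 subset sums and the *Pdgfra*-negative *Myh11* or *Rgs5* sum of each stage gave 12 values per gene, over which *Fbn1* and *Mfap5* were the most alike of all pairs of members (Pearson's r of log2(CPM + 5) 0.982) and *Eln* and *Efemp1* the least (0.163). Those sums share cells and libraries, so the correlations describe these data only. They also include the *Myh11* or *Rgs5* sums, where most members were far lower, so an r reflects that contrast as well. *Fbn1* and *Fbln1* reached 0.930, although their pubertal ratios of *Pi16*+*Dpp4*+ cells to cells with neither marker were 4.18 and 0.676.

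Within each subset the question was whether the stages still differed once cells of like markers were compared. *Eln* was lower in the adult in every one of the 6 cell groups. The ratios were 0.554 in *Pi16*+*Dpp4*+ cells, 0.415 in *Gdf10* or *Fmo2* cells, 0.572 in *Thbs4* or *Bmp5* cells, 0.454 in *Fabp4* cells, 0.244 (0.233 to 0.254) in *Crabp1* cells and 0.428 (0.376 to 0.487) in the *Myh11* or *Rgs5* cells. *Fbn2* was also lower in all 6, from 0.403 in the *Myh11* or *Rgs5* cells and 0.419 in *Pi16*+*Dpp4*+ cells to 0.774 in *Gdf10* or *Fmo2* cells. It was higher in the adult, however, in *Pdgfra*+ cells with neither *Pi16* nor *Dpp4*, which are not among the 6. The ratio there was 1.51 (1.44 to 1.58). *Fbn1* was lower in all 6 as well but by less, between 0.623 and 0.849. In the *Myh11* or *Rgs5* group neither fibrillin was lower in the adult when cells with a fibroblast subset marker were left out. *Fbn1* was then at 74.9 CPM at puberty and 82.4 CPM in the adult, a ratio of 1.10. *Fbn2* was at 2.31 and 5.58 CPM, under the minimum of 10 CPM at both stages, so its direction there rests on few counts. *Mfap5* ranged from 0.346 in the *Myh11* or *Rgs5* cells, and 0.680 in *Pi16*+*Dpp4*+ cells, to 0.921 in *Fabp4* cells. In *Pdgfra*+ cells with neither *Pi16* nor *Dpp4* the *Mfap5* ratio was 1.19 (1.17 to 1.22).

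Ratios past 1.5-fold lower were set against all genes in the same cells. In *Pi16*+*Dpp4*+ cells 2 of 10 genes were called (*Eln*, *Fbn2*) against 3.86% of all genes, in *Gdf10* or *Fmo2* cells 2 (*Eln*, *Fbn1*) against 5.72%, and in *Thbs4* or *Bmp5* cells 3 (*Eln*, *Fbn2*, *Mfap4*) against 5.43%. In *Fabp4* cells 2 were called (*Eln*, *Fbn2*) against 5.36%, and in *Crabp1* cells 4 (*Eln*, *Fbn2*, *Fbln5*, *Mfap4*) against 6.45%. Past 1.5-fold higher there was no member in *Pi16*+*Dpp4*+ cells, where 9.46% of all genes were called. *Efemp1* was called in *Gdf10* or *Fmo2* cells (1.64, where 10.7% of genes were), in *Fabp4* cells (1.80, against 8.12%) and in *Crabp1* cells (1.93, against 8.27%). *Fbln2* was called in *Thbs4* or *Bmp5* cells (1.54, against 6.21%). With exclusive subsets the calls of *Eln* (0.690) and *Fbln2* (1.31) in *Thbs4* or *Bmp5* cells, *Fbn1* (0.846) in *Gdf10* or *Fmo2* cells and *Fbn2* (0.956) in *Fabp4* cells ended. *Efemp1* was then also called higher in *Pi16*+*Dpp4*+ cells (1.58) and *Thbs4* or *Bmp5* cells (1.62). So were *Fbn2* in *Gdf10* or *Fmo2* cells (1.81) and *Fbln1* in *Crabp1* cells (1.97). *Mfap4* was then called lower in *Pi16*+*Dpp4*+ cells (0.503) and *Gdf10* or *Fmo2* cells (0.483) as well.

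**Figure D3:**
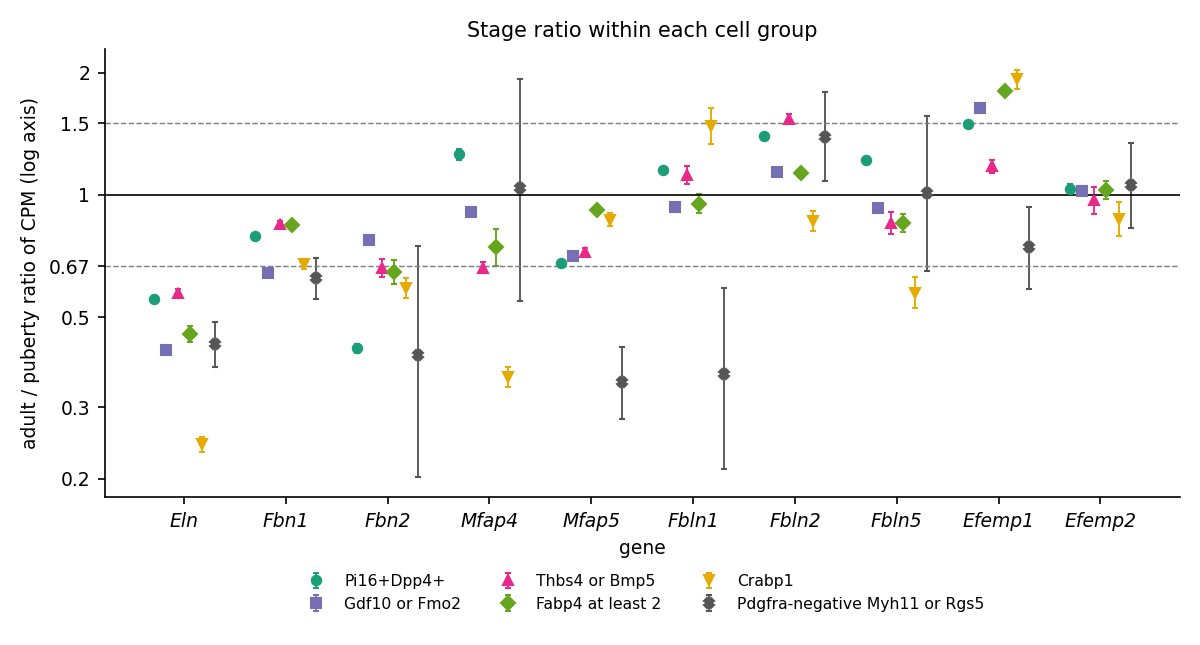
Adult over pubertal CPM for each gene within the 5 marker subsets and the Pdgfra-negative Myh11 or Rgs5 cells, on a log axis with 95% counting intervals, a solid line at 1 and dashed lines at 1.5-fold either way. All Eln points lie between 0.244 and 0.572, the Efemp2 points lie around 1, and Mfap4 spreads from 0.356 in Crabp1 cells to 1.26 in Pi16+Dpp4+ cells.

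The makeup of the *Pdgfra*+ cells differed between the libraries, so the pooled ratios were set beside disjoint classes: cells with the markers of 1 subset alone, of several, or of none, 7 classes in all. Cells of the *Pi16*+*Dpp4*+ class alone gave 48.0% of *Pdgfra*+ UMIs at puberty and 23.3% in the adult. *Eln* was lower in the adult in 7 of 7 classes, with ratios of 0.145 to 0.690, and *Efemp1* was higher in 7 of 7, with ratios of 1.47 to 2.84. *Fbn2* was lower in 6 of 7 but higher in cells with *Gdf10* or *Fmo2* alone, with 43.8 CPM at puberty and 79.2 CPM in the adult, a ratio of 1.81. *Fbn1* was lower in 6 of 7 and stood at 1.09 in cells with *Fabp4* alone. *Mfap5* was lower in 4 of 7 and higher in 3, with ratios of 0.695 to 1.17. When the adult levels of the classes were weighted by their pubertal shares of UMIs, *Eln* came to 0.515 and *Fbn2* to 0.512 of the pubertal level, and *Efemp1* to 1.59 times it. Under that weighting *Fbn1* came to 0.788 and *Mfap5* to 0.717, which is no longer past 1.5-fold, and both were also within the fold with equal weight for each subset.

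*Mfap4* changed direction with this weighting. Pooled over *Pdgfra*+ cells it was 1.13 times the pubertal level in the adult, yet it was lower in 6 of 7 classes. In cells with *Thbs4* or *Bmp5* alone it was at 810.2 CPM at puberty and 362 CPM in the adult, and this class gave 1.06% and 3.42% of the *Pdgfra*+ UMIs. In cells with *Crabp1* alone it was at 541 and 104 CPM (100 and 1042 cells), with 0.535% and 4.41% of UMIs. The class with markers of several subsets was the single exception, with 97.9 and 118 CPM. At the class shares of puberty the adult level of *Mfap4* was 61.6 CPM, a ratio of 0.796.

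**Figure D4:**
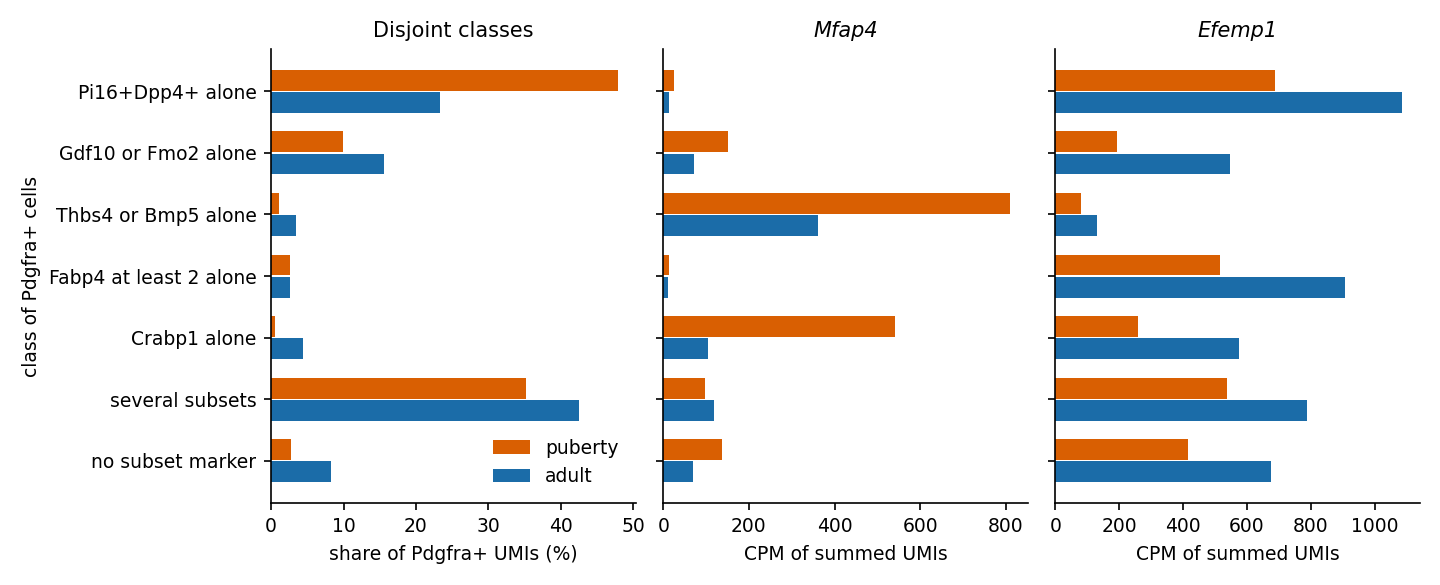
Share of Pdgfra+ UMIs (left), level of Mfap4 (middle) and level of Efemp1 (right) in the 7 disjoint classes of Pdgfra+ cells, with puberty in orange and adult in blue. The Pi16+Dpp4+ class goes from 48.0% to 23.3% of UMIs, the Mfap4 bar is shorter in the adult in 6 classes, and the Efemp1 bar is longer in the adult in all 7.

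*Efemp1* and *Efemp2* encode sister proteins whose levels differed between the stages to unlike extents. Over the 7 classes *Efemp1* had adult over pubertal ratios of 1.47 to 2.84 and *Efemp2* of 0.764 to 1.07. Their upstream regions are shown for that contrast. The bases from -250 to -2 before a RefSeq start site (GRCm38.p6) are printed in lower case with 5′ to 3′ orientation, and capitals mark each GC box (GGGCGG or its reverse complement). The *Efemp1* window is chr11:28852955-28853203 and the *Efemp2* window chr19:5473696-5473944, both on the plus strand and outside annotated exons.
Efemp1: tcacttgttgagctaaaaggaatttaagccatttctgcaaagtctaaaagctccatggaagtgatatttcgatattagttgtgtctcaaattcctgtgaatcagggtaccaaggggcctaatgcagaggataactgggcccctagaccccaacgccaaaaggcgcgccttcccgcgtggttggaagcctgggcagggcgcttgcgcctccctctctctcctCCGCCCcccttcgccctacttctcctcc
Efemp2: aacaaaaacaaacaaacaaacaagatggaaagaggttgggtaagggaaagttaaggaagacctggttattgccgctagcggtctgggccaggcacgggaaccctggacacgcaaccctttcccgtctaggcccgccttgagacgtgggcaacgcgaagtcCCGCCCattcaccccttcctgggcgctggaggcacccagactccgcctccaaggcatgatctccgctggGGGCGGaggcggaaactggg

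The *Efemp1* window held 53.4% G and C with 1 GC box and the *Efemp2* window 59.4% with 2. Over 32851 RefSeq windows of the same length the median was 52.2%, and 32.6% held a GC box. Searches on both strands for the TATA box (TATAAA), the AP-1 motif (TGACTCA), the TEAD motif (GGAATG) and the SMAD motif (CAGACA) found no match in either window. Of all windows 12.4% held the TATA box, 4.45% the AP-1 motif, 12.6% the TEAD motif and 17.1% the SMAD motif. A match or its absence describes these letters only. The windows used matched 6 of the 10 genes, namely *Fbn1*, *Fbln1*, *Fbln2*, *Fbln5*, *Efemp1* and *Efemp2*. Windows on chromosome 18, which holds *Fbn2*, had been left out of that matching.

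Summed over the *Pdgfra*-negative *Myh11* or *Rgs5* cells, 2 of the genes were at a larger share of their fibroblast level than the other 8. *Eln* was counted at 238 CPM at puberty and 102 CPM in the adult, which is 43.8% and 41.9% of the level in *Pdgfra*+ cells. *Efemp2* was counted at 36.1 and 38.2 CPM, or 41.5% and 44.5%. The other 8 genes lay between 3.85% and 11.8% of the *Pdgfra*+ level at either stage. *Fbn1*, for example, was at 213 and 133 CPM (8.10% and 8.08%), and *Mfap5* at 114 and 39.5 CPM (8.91% and 5.12%). The fibroblast matrix genes *Dcn*, *Lum*, *Col1a1* and *Col1a2* stood at 11.1% to 11.8% in these cells at puberty and at 4.27% to 4.65% in the adult. All 10 genes were past 1.5-fold lower than in *Pdgfra*+ cells at both stages, where 25.5% of all genes were at puberty and 22.4% in the adult. *Eln* UMIs were seen in 34.9% of 727 thinned cells at puberty and in 19.5% of 374 in the adult, and *Efemp2* in 9.08% and 9.36%.

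The levels of *Eln* and *Efemp2* in these cells held when cells with any UMI of *Pi16*, *Dpp4*, *Gdf10*, *Fmo2*, *Thbs4* or *Bmp5* were left out. *Eln* was then at 212 and 109 CPM and *Efemp2* at 35.7 and 36 CPM in 492 and 275 cells. *Fbn1* was at 74.9 and 82.4 CPM and *Mfap5* at 22.8 and 13.0 CPM in the same cells. In cells with *Myh11* (756 and 392), *Eln* was at 232 and 100.01 CPM. In those with *Rgs5* but no *Myh11* (27 and 65) it was at 419 and 121 CPM. *Fbn1* was at 1300.4 and 589.5 CPM there, nearer to the fibroblasts. *Eln* and *Efemp2* did not both stand above the other genes in these few cells. At puberty *Efemp2* was at 0.354 of its *Pdgfra*+ level and *Eln* at 0.772, against 0.883 for *Efemp1* and 0.687 for *Mfap5*. In the adult *Efemp2* was at 0.397 and *Eln* at 0.497, against 0.608 for *Fbln5* and 0.604 for *Mfap4*. Other genes were lower than both at each stage. At puberty 7 genes were past 1.5-fold lower there.

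**Figure D5:**
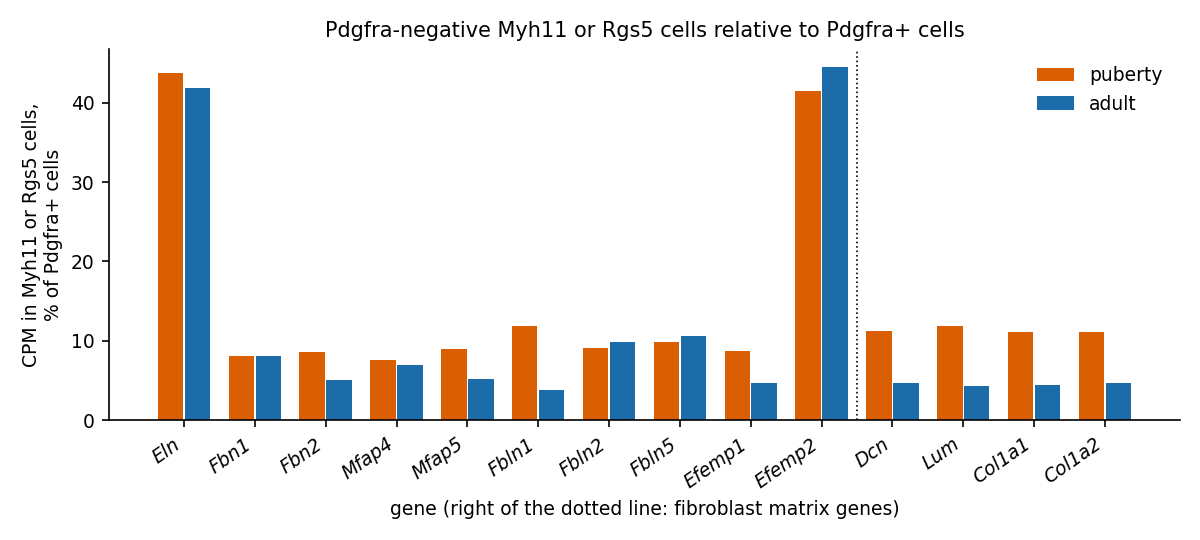
Level of each gene in Pdgfra-negative Myh11 or Rgs5 cells as a percentage of its level in Pdgfra+ cells, with puberty in orange, adult in blue and 4 fibroblast matrix genes to the right of the dotted line. Eln and Efemp2 stand at 41.5% to 44.5%, and every other bar lies at or below 11.8%.

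Between the stages 5 of the 9 genes with at least 10 CPM in these cells were past 1.5-fold lower in the adult (*Eln*, *Fbn1*, *Fbn2*, *Fbln1*, *Mfap5*) and none was past 1.5-fold higher, against 6.17% and 17.0% of all genes. *Eln* and *Mfap5* kept that call in each of the 6 alternative sets of cells, with ratios of 0.289 to 0.515 and 0.202 to 0.595. Without cells that had a fibroblast subset marker they were the 2 genes called lower of 6 tested, while *Fbn1* came to 1.10 and *Fbln2* to 3.83, and *Fbn2* and *Fbln1* were under 10 CPM at both stages. The cells behind the 2 sums were not alike. The pericyte markers *Rgs5*, *Kcnj8*, *Abcc9*, *Higd1b* and *Vtn* summed to 484 CPM at puberty and 2005 CPM in the adult, all 5 above 0. The smooth muscle markers *Myh11*, *Cnn1*, *Myocd*, *Actg2* and *Des* summed to 7903 and 7249 CPM, the 6 fibroblast markers to 4867 and 2526 CPM with *Pdgfra* at 0 by the gate, and 5 epithelial markers to 34.9 and 610.0 CPM. The part of these differences in the stage ratios was not tested.

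The wider elastic fibre machinery was read from 42 further genes, of which 33 had at least 10 CPM in *Pdgfra*+ cells of either library. Of these, 9 were past 1.5-fold higher in the adult and 1 was past it lower, calls that 12% and 5.09% of all genes received in these cells. The median log2 ratio was 0.18, against 0.13 over all genes. The crosslinking enzymes stayed within the fold in 4 of 4 measured genes, from *Lox* (221 and 182 CPM, 0.823) to *Loxl3* (21.1 and 26.2 CPM, 1.24), with a median log2 ratio of -0.16. *Loxl1*, the lysyl oxidase most closely tied to elastin, gave 335 and 319 CPM.

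Among microfibril-associated genes 5 of 13 were past the fold higher and 1 lower, with a median log2 ratio of 0.38. The lowest was *Mfap2*, a fibrillin-binding glycoprotein related to *Mfap5*, with 353 CPM at puberty and 194 CPM in the adult, a ratio of 0.549 (0.543 to 0.555). Its adult level was below the pubertal one in all 5 marker subsets too, for example 358 and 185 CPM in *Pi16*+*Dpp4*+ cells. The highest was *Adamts17*, a protease of the fibrillin-binding ADAMTS group, with 7.06 and 17.2 CPM, a ratio of 2.44. *Ltbp4*, a latent TGF-beta binding protein that takes part in elastic fibre assembly, was at 80.9 and 131 CPM, a ratio of 1.62, and *Emilin1*, an elastin-interface glycoprotein, at 17.1 and 29.5 CPM, a ratio of 1.73. Their more abundant relatives *Ltbp1* (499 and 343 CPM, 0.686) and *Emilin2* (330 and 242 CPM, 0.735) were lower in the adult but within the fold. *Ltbp3* was within it on the higher side (33.8 and 43.9 CPM, 1.30).

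All 3 more distant fibulin relatives were past the fold higher in the adult, with a median log2 ratio of 2.38. *Hmcn1*, which encodes the extracellular matrix protein hemicentin-1, was counted at 59.5 and 357 CPM, a ratio of 6.00 (5.89 to 6.11). *Hmcn2* was at 24.5 and 127 CPM, a ratio of 5.21, and *Fbln7* at 12.4 and 48.4 CPM, a ratio of 3.897. By subset they were placed differently. *Hmcn1* was highest in *Crabp1* cells at both stages, where it was at 1123 and 823 CPM and so not higher in the adult, while in *Pi16*+*Dpp4*+ cells it was at 16.3 and 138 CPM. *Hmcn2* was highest in *Thbs4* or *Bmp5* cells, with 293 and 619 CPM, and *Fbln7* too, with 55.7 and 86.5 CPM.

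The elastin-degrading proteases had 4 of 9 genes measured, none past the fold, from *Ctsl* (0.831) to *Mmp14* (1.17). *Mmp7*, *Mmp9*, *Mmp12*, *Ctss* and *Elane* were below 10 CPM at both stages. Of 9 receptor genes *Itga8*, an integrin chain of smooth muscle and other mesenchymal cells, was past the fold higher, with 8.88 and 43.9 CPM and a ratio of 4.94 (4.72 to 5.18). *Itga8* was also at 317 and 224 CPM in the *Myh11* or *Rgs5* cells. The lowest receptor ratio was 0.685, for *Itgav* with 237 and 162 CPM.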

How the data were processed

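The authors deposited UMI counts by gene and barcode for each library, after cell calling and without normalization. The submitters' processing notes name Cell Ranger 8.0.1 and the mm10 build, and the labels the GEM-X 3′ v4 kit. Where the methods section differs (kit, Cell Ranger release, age at puberty), the labels were followed. The annotation release and strand setting of the counting are not given in the sources used here. Of the 33696 gene identifiers 32012 were found in GENCODE M21 (GRCm38), from which gene positions were taken. *Eln*, *Fbn1*, *Efemp2* and *Mfap4* share exonic bases there with counted antisense genes (*Gm30003*, *Gm9913*, *Mus81*, *Mapk7*).

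Cells with at least 500 genes and at most 10% mitochondrial UMIs were kept, and counts were summed per group and divided to CPM. UMIs were not divided by length, so levels between genes are per captured transcript. Sums carry exact Poisson intervals, shares exact Clopper-Pearson intervals and ratios conditional binomial intervals, at 95% and for counting error only. A gene was called past 1.5-fold among genes with at least 10 CPM in either sum. Doublets were kept, and an alternative left out the highest Scrublet scores (scanpy 1.11.5) at 0.4% per 1000 barcodes. TMM factors came from edgeR 4.0.16 under R 4.3.3, and the rest was computed in Python 3.11.15. The intervals and ratios were tested on simulated sums with Poisson counting error alone. That simulation held no variation between animals, libraries or cells, so it cannot show how well the intervals cover such variation.

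The 10 genes, the subsets and the lists were chosen with earlier results of these data known. All 10 genes were named, and of each list the genes with the highest and lowest ratio. *Loxl1*, *Ltbp4*, *Emilin1*, *Hmcn2*, *Ltbp1*, *Ltbp3* and *Emilin2* were added after their values were seen. For each gene the 2 most alike in pattern were named among genes with at least 20 CPM. A comparison with 1 other cell type is not reported here.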

Additional observations from a re-analysis of the deposited data

Results flagged for a closer look

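The 5 marker subsets and the *Myh11* or *Rgs5* cells were compared. For 5 of the 10 genes, given below, the stages differed in opposite directions between these groups, with counting intervals on either side of 1. *Efemp2* did so too but by less, with 1.04 (1.01 to 1.06) in *Pi16*+*Dpp4*+ cells and 0.873 (0.795 to 0.962) in *Crabp1* cells. Outside these groups, *Pdgfra*+ cells with neither *Pi16* nor *Dpp4* had adult over pubertal ratios of 1.51 (1.44 to 1.58) for *Fbn2* and 1.19 (1.17 to 1.22) for *Mfap5*. In *Pi16*+*Dpp4*+ cells those ratios were 0.419 (0.408 to 0.430) and 0.680 (0.675 to 0.684). The difference between the groups was not tested, since each stage had 1 library.

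*Mfap4* had an adult over pubertal ratio of 1.26 in *Pi16*+*Dpp4*+ cells and of 0.356 in *Crabp1* cells, and *Fbln5* of 1.22 in *Pi16*+*Dpp4*+ cells and 0.575 in *Crabp1* cells. In cells with *Pi16* and *Dpp4* but no marker of another subset the *Mfap4* ratio was 0.503 and that of *Fbln5* 1.31. *Fbln2* had a ratio of 1.54 in *Thbs4* or *Bmp5* cells and of 0.863 in *Crabp1* cells. *Fbln1* had a ratio of 1.48 in *Crabp1* cells and *Efemp1* one of 1.93, while in the *Myh11* or *Rgs5* cells the ratios were 0.362 and 0.744. Those last values rest on few UMIs, 96 and 20 of *Fbln1* and 250 and 107 of *Efemp1* at puberty and in the adult. Without *Myh11* or *Rgs5* cells that had a fibroblast subset marker, the *Efemp1* ratio turned to 1.27, and after thinning to 1.33. The *Fbln1* ratio came to 0.867 and 0.804 there. In the other alternative sets of these cells both ratios stayed below 1. Gates redrawn on the thinned counts took in 820 and 426 such cells, against 727 and 374 of that depth by the full counts. Adult *Efemp1* was then at 91.5 CPM, against 36.5 CPM. The part of cells that lost their *Pdgfra* UMIs by thinning was not tested.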

How the results depend on the processing

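No paired analysis was possible because each stage had 1 library, both marked with the same replicate number. The median log2 ratio of the 10 genes in *Pdgfra*+ cells was -0.06 and came to -0.18 with TMM factors, -0.15 when cells were averaged by their own CPM, -0.21 with equal weight for each exclusive subset, -0.14 after thinning and -0.15 at the class shares of puberty, an alternative chosen after seeing the data. TMM shifted every log2 ratio by 0.13, bringing the median over all genes from 0.13 to 0.0039. *Fbn2* then passed 1.5-fold lower (-0.68), as it did with equal weight (-0.83) and at the shares of puberty (-0.96). *Fbn1* and *Mfap5* left that call with equal weight (-0.18 and -0.25). *Efemp1* became the 1 gene past 1.5-fold higher with equal weight (0.90) and at the shares of puberty (0.67). *Mfap4* was lower in the adult with equal weight (-1.45) and at the shares of puberty (-0.33). *Eln* stayed between -1.31 and -0.96 in every alternative run.

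Between *Pi16*+*Dpp4*+ cells and cells with neither marker, the genes past 1.5-fold lower went from 1 to 2 with exclusive subsets at both stages, with cells averaged by their own CPM at puberty and after thinning in the adult. Over the 60 combinations of gene and cell group, the ratios past 1.5-fold higher went from 4 to 7 with exclusive subsets, 2 with TMM and 8 after thinning. Without a minimum of CPM, 23.0% of all genes were past 1.5-fold higher and 15.6% lower. Thinning left out cells under 3000 UMIs, and gates were redrawn on the thinned counts. Counts of 0 in small groups limit little: 3 UMIs were taken as the floor.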

Other observations

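For each of the 10 genes the pattern over the 12 group sums was set beside 8196 genes with at least 20 CPM. The genes most like *Fbn1* were *Qpct* and *Flnc* (Pearson's r 0.995 and 0.993), and those most like *Mfap5* were *Has1* and *Mcc* (0.991 for both). *Eln* had the least similar companions, *Magi3* (0.898) and *Tent4a* (0.857), and *Mfap4* came next with *Cyba* and *Foxp2* (0.924 and 0.921). *Fbn2* was most like *Sec31a* and *Selenos* (0.960 for both), *Fbln1* like *Glis2* (0.977) and *Olfml1* (0.970), and *Fbln2* like *Xkr4* and *Cebpd* (0.980 and 0.977). *Fbln5* was most like *Sntb2* and *Cercam* (0.991 and 0.988), *Efemp1* like *Fam172a* and *B3gntl1* (0.981 and 0.980), and *Efemp2* like *Wipi1* and *Kdelr1* (0.981 and 0.980). The sums of a stage share a library and, among the subsets, cells, so these are descriptions of likeness in these data. They include the contrast with the *Myh11* or *Rgs5* sums and are not likeness among the fibroblast subsets alone.

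*Pdgfra*+ cells with none of the subset markers numbered 706 at puberty and 2507 in the adult, at median depths of 9977 and 7490 UMIs. They held more *Fbn2* than the whole of the *Pdgfra*+ cells, with 161 and 152 CPM against 129 and 87.7 CPM, and in the adult they came second to the *Crabp1* cells. *Eln* was at 332 and 112 CPM in them and *Fbn1* at 1245 and 808 CPM, both below the *Pdgfra*+ level. After thinning, 59.1% of pubertal and 45.2% of adult *Pdgfra*+ cells had UMIs of 5 or more of the 10 genes, against 2.48% and 0.535% of the *Myh11* or *Rgs5* cells.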
